A study of Mus musculus with 9 samples.

Results

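The genes described here are 9 Toll-like receptors of the mouse, Tlr1, Tlr2, Tlr4, Tlr5, Tlr6, Tlr7, Tlr8, Tlr9 and Tlr13, and the adaptor gene Myd88. They were taken by symbol from the 20926 genes of a table of RNA labelled as blood leukocyte, which held all 10 of them. All 10 were above the limit set for testing. The RNA came from male DBA/1 mice, a strain that develops arthritis after immunization with collagen, with 3 libraries in each of 3 groups and an age of 7 weeks in the labels. In the paper, 7 weeks is the age at which mice were divided into groups, and the booster and the irradiation came later. The Ctrl mice were the control group and were not irradiated. The CIA mice had collagen-induced arthritis, which was raised with chick type II collagen in Freund's adjuvant and a later booster, and received no irradiation. The CIA+THz mice carried the same arthritis, and on 14 days their swollen ankle joints were exposed, under isoflurane anaesthesia, to radiation of 0.1 THz for 30 min. Anaesthesia of the Ctrl and CIA mice is not mentioned in the sources used here, so that irradiation and anaesthesia cannot be told apart. The adjuvant used for the first immunization contains killed mycobacteria, a source of Toll-like receptor ligands, and the Ctrl mice are not described as having received it.

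Toll-like receptors recognize conserved parts of microbes. Those at the cell surface bind lipoproteins, lipopolysaccharide or flagellin, whereas those in endosomes bind nucleic acids. After binding, the receptors recruit Myd88, which assembles IRAK kinases and TRAF6 and leads to NF-kB activation and to transcription of cytokine genes. Circulating neutrophils and monocytes carry many of these receptors, while Tlr9 is also a receptor of B cells and plasmacytoid dendritic cells. In blood RNA, a smaller number of cells of a type and less RNA per cell cannot be told apart.

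Promoter sequences of 3 receptors are shown first, because Tlr8 and Tlr2 were the receptors that differed most clearly across the groups and Tlr13 had the highest level of all receptors and did not pass any test on the rescaled values. They are the RefSeq sequences of the reference strain on GRCm38.p6, not of DBA/1, each 300 bases around the annotated start and written 5′ to 3′ on the strand of the gene. Tlr2 is at chr3:83841559-83841858 on the minus strand, Tlr8 at chrX:167264280-167264579 on the minus strand and Tlr13 at chrX:106143025-106143324 on the plus strand. Capitals mark matches, on either strand, to GAGGAA, the core bound by ETS factors such as PU.1 of myeloid cells, and to the NF-kB pattern, which was searched as G at 3 bases, any base at the next 5 and C at the last 2.
Tlr2: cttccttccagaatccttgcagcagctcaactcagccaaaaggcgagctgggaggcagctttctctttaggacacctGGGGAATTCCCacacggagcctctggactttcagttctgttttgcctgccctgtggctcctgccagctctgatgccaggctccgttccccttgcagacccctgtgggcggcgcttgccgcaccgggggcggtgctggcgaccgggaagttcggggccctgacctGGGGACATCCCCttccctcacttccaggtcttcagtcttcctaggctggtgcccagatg
Tlr8: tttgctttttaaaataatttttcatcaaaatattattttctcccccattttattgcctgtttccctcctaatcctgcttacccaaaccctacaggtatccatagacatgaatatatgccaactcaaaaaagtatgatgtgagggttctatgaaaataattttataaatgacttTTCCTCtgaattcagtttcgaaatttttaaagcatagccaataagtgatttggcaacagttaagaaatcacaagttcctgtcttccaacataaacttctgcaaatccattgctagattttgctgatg
Tlr13: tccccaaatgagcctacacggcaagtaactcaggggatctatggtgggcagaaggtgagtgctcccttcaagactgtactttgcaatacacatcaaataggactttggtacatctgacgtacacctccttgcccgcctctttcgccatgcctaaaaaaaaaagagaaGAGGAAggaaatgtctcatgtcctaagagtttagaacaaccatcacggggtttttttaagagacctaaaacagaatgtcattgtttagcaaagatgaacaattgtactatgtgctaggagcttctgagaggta
The Tlr2 window held 62% G and C and 5 overlapping NF-kB matches in 2 separate stretches, with no match to the ETS core. The Tlr8 window was poorer in G and C, at 32.3%, and held 1 ETS match that began at position -77 from the annotated start. The Tlr13 window held 43.3% G and C and 1 ETS match at -83. Neither Tlr8 nor Tlr13 held the NF-kB pattern. Both patterns are common: of 32851 promoters of the same length, 28.3% held the ETS core and 50.8% the NF-kB pattern. The same windows were searched for TGANTCA of AP-1, the IRF pattern (GAAA, 2 free bases and GAAA), TTGCNNAA of C/EBP factors and TATAAA. These were held by 7.81%, 3.44%, 10.8% and 13.6% of all promoters. Of the 3 windows shown, that of Tlr8 matched the C/EBP and TATA patterns and that of Tlr13 the C/EBP pattern, and none of those matches overlapped a stretch in capitals. A match is a description of letters only. Promoters were found for 8 of the 10 genes, without Tlr4 and Tlr7, and that of Myd88 held neither capitalized pattern and 1 IRF match.

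The values were FPKM, fragments scaled by transcript length and library total, which allow levels of different genes to be compared per length. Libraries were brought to a common scale with 1 median-of-ratios factor each (0.847 to 1.24), and all levels below are rescaled FPKM with the mean ± SD of 3 libraries. Between 11801 and 12807 genes were above 0 in a library, and the number of reads behind a value is unknown. Alas2, a gene of red cell precursors, made up 11.4% to 16.7% of the FPKM of a library. The tissue label names leukocytes, whereas the methods of the paper describe extraction of total blood RNA. The pan-leukocyte marker Ptprc was present in all 9, at a rescaled FPKM of 70.8, 66.8 and 141 in CIA and 92.7 to 150 in the others. Correlations over the genes tested lay between 0.934 and 0.963 within groups and between 0.923 and 0.957 between groups, so no library stood far apart, although Ctrl replicate 3 had the lowest sum of neutrophil markers among the controls. A fold change is given as the difference between groups in log2(rescaled FPKM + 0.1), and limma was run over all 12366 genes with a mean of at least 0.1. The criterion of the study, an unadjusted p under 0.05 with an absolute log2 fold change above 0.67, was kept, and the Benjamini-Hochberg adjusted p over all genes is given beside it. The p-values measure the spread between these 3 libraries of a group. Each pair of comparisons shares a group of libraries, so that the comparisons do not support each other independently.

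Tlr13, an endosomal receptor of bacterial ribosomal RNA, had the highest level of the receptors in every group. Its share of the summed level of the 9 receptors lay between 29.1% and 40.7% over the libraries. In Ctrl, it was followed by Tlr8, Myd88 and Tlr4, whose neighbouring ranges overlapped, and then without overlap by Tlr2, Tlr7 and Tlr6. Tlr9, Tlr1 and Tlr5 were the lowest in all 3 groups, and the ranges of Tlr9 and Tlr1 overlapped in each. In CIA, Myd88 stood first at 62.4 ± 7.38 with a range that overlapped that of Tlr13 at 59.1 ± 4.48. In CIA+THz, Tlr2 stood below Tlr7, and the ranges of Tlr2, Tlr6, Tlr9 and Tlr1 overlapped from each to the next. The summed level of the receptors was 182 to 216 in the Ctrl group, 146 to 170 in CIA and 135 to 148 in CIA+THz.

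**Figure D1:**
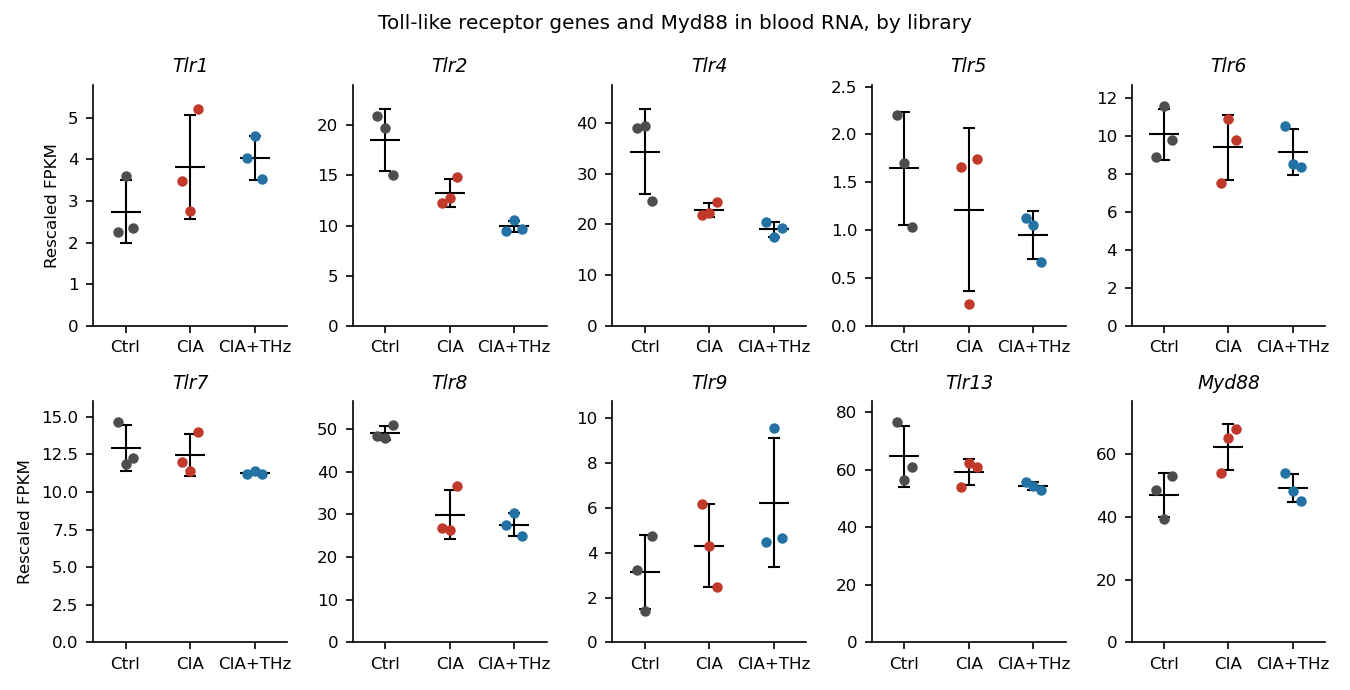
Rescaled FPKM of the 9 Toll-like receptor genes and Myd88 in each Ctrl, CIA and CIA+THz library, with points for libraries 1, 2 and 3 from left to right, bars for the mean and whiskers for 1 SD (n = 3), and a separate linear axis from 0 for each gene. Tlr8 sits between 48.0 and 51.0 in Ctrl and at 36.7 or below in every other library, Tlr2 and Tlr4 have their lowest group in CIA+THz, and Myd88 has its highest group in CIA.

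Across the 3 groups, limma's F-test gave an unadjusted p under 0.05 for 4 of the 10 genes, namely Tlr8, Tlr2, Tlr4 and Myd88, beside 21.3% of all genes tested. After adjustment over all genes, limma left Tlr8 (adjusted p = 0.0252) and Tlr2 (adjusted p = 0.0377) under 0.05, beside 2.53% of all genes. Tlr4 (adjusted p = 0.0671) and Myd88 (adjusted p = 0.205) did not pass the adjustment by limma. Tlr8, Tlr2 and Tlr4 kept an unadjusted p under 0.05 in all 18 alternatives tried for this test. The adjusted p of Tlr8 was under 0.05 in 6 of them and that of Tlr2 in 5, with largest values of 0.118 and 0.123 by limma or a variance test on linear values.

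Among the surface receptors, Tlr2 and Tlr4 were lower in CIA+THz than in Ctrl, with CIA between them after rescaling. Tlr1, Tlr5 and Tlr6 did not pass the criterion with all rescaled libraries. Tlr2 binds bacterial lipoproteins and lies on chromosome 3 of GRCm38 (83836272 to 83841767, minus strand). Its level was 20.9, 19.7 and 15.1 in the Ctrl libraries, 12.2, 12.7 and 14.8 in the CIA libraries, and 9.50, 10.6 and 9.69 in the CIA+THz libraries. After rescaling, all CIA libraries lay below all Ctrl libraries and all CIA+THz libraries below all CIA libraries, without overlap. With FPKM as deposited, the CIA libraries were 11.1, 12.3 and 14.7 and the CIA+THz libraries 11.8, 12.1 and 10.6, which overlapped. Tlr2 fell in CIA+THz against Ctrl by 0.89 ± 0.16 (SE) on the log2 scale, which is 1.85-fold (adjusted p = 0.0803 by limma). The step from Ctrl to CIA was -0.47 ± 0.17 (unadjusted p = 0.0271, adjusted p = 0.231 by limma), and that from CIA to CIA+THz was -0.41 ± 0.13 (unadjusted p = 0.0144, adjusted p = 0.273 by limma). Both of these steps were below the size criterion.

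Tlr4, the lipopolysaccharide receptor (chromosome 4, 66827584 to 66930284, plus strand), had a higher mean level than Tlr2 in each group. Its level was 39.0, 39.4 and 24.6 in Ctrl, 21.9, 22.3 and 24.5 in CIA, and 20.4, 17.5 and 19.2 in CIA+THz. Ctrl replicate 3 stood far below the other Ctrl libraries and just above the highest CIA library, and the 3 groups did not overlap. Tlr4 fell in CIA+THz against Ctrl by 0.82 ± 0.19 on the log2 scale, or 1.76-fold (adjusted p = 0.128 by limma). The log2 fold change of Tlr4 from Ctrl to CIA was -0.55 ± 0.20 (adjusted p = 0.230 by limma), without Ctrl replicate 3 it was -0.78 and past the criterion, and after correction for the GC content of transcripts it was -0.24 (adjusted p = 0.588 by limma). From CIA to CIA+THz it was -0.27 ± 0.11 (adjusted p = 0.359 by limma).

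Tlr1 and Tlr6, which pair with Tlr2 for lipoproteins with different acyl chains, did not pass in a comparison of all rescaled libraries. Tlr1 (chromosome 5, 64924679 to 64933563, minus strand) was 2.74 ± 0.755 in the Ctrl group, 3.82 ± 1.25 in CIA and 4.04 ± 0.524 in CIA+THz. Tlr6, its neighbour on the same strand (64952031 to 64960097), was 10.1 ± 1.36, 9.42 ± 1.70 and 9.17 ± 1.20 in the same groups. The ranges of the groups overlapped for both genes in all 3 comparisons. Without Ctrl replicate 2, the log2 fold change of Tlr1 over Ctrl was 0.78 in CIA+THz and past the criterion. For Tlr6, the 95% interval of the log2 fold change was -0.57 to 0.35 in CIA against Ctrl and -0.46 to 0.40 in CIA+THz against CIA. The split of reads between Tlr1 and Tlr6 is uncertain, since 340 stretches of 75 bases are identical in both, 10.3% of those of Tlr1 and 9.25% of those of Tlr6, and the longest identical run is 229 bases.

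Tlr5, the flagellin receptor (chromosome 1, 182954788 to 182976044, plus strand), had the lowest level of the receptors and the least certain one. It was 2.20, 1.71 and 1.03 in Ctrl, 1.67, 0.230 and 1.74 in CIA, and 1.12, 1.06 and 0.666 in CIA+THz. A single CIA library was low, and the groups overlapped. From Ctrl to CIA the log2 fold change was -0.71 ± 0.72 (adjusted p = 0.643 by limma) and turned to 0.10 without CIA replicate 2. Without Ctrl replicate 3, Tlr5 passed in CIA+THz against Ctrl, at -0.99.

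Among the endosomal receptors, Tlr8 was lower in both arthritic groups than in Ctrl. Tlr7 and Tlr13 did not pass the criterion with all rescaled libraries, and Tlr9 passed it only under alternative settings. Tlr8, one of the RNA-sensing receptors, lies on the X chromosome (167242696 to 167264329, minus strand), next to Tlr7 on the same strand. Its level was 48.3, 48.0 and 51.0 in Ctrl, 26.8, 26.3 and 36.7 in CIA, and 27.6, 30.3 and 25.0 in CIA+THz. Every Ctrl library lay above every other library, and the CIA and CIA+THz libraries overlapped, with CIA replicate 3 the highest of the 6. Tlr8 fell in CIA against Ctrl by 0.73 ± 0.15 on the log2 scale, or 1.66-fold (unadjusted p = 0.00187, adjusted p = 0.0919 by limma). It fell in CIA+THz against Ctrl by 0.83 ± 0.11, or 1.78-fold (unadjusted p = 8.38e-05, adjusted p = 0.0540 by limma). Between the arthritic groups the log2 fold change was -0.10, CIA+THz minus CIA, with a 95% interval of -0.48 to 0.27.

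The call of Tlr8 in CIA against Ctrl was close to the size criterion. Without CIA replicate 1 the log2 fold change was -0.66 and without CIA replicate 2 it was -0.64, both short of 0.67. With log2 values corrected for the GC content of transcripts it was -0.44 (adjusted p = 0.242 by limma). Tlr8 and Tlr4 have AT-rich transcripts, with 40.1% and 39.4% G and C, beside 41.0% for Tlr7, 43.6% for Tlr13 and 49.3% for Tlr2. In CIA against Ctrl, the log2 fold changes of Tlr2 stayed between -0.49 and -0.44 over the 10 settings that kept all libraries, the reported one included. In CIA+THz against Ctrl, Tlr2, Tlr4 and Tlr8 each passed in 8 of those 10 settings. The part of GC content in these changes was not tested.

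Tlr7, a receptor of single-stranded RNA (X chromosome, 167304929 to 167330558), was 12.9 ± 1.53 in the Ctrl group, 12.5 ± 1.37 in CIA and 11.3 ± 0.126 in CIA+THz. Unlike Tlr8 beside it, it had a log2 fold change from Ctrl to CIA of -0.052 with a 95% interval of -0.42 to 0.32. The difference between these receptors was not itself tested. Tlr13 (X chromosome, 106143204 to 106160493, plus strand) was 76.4, 56.4 and 60.8 in Ctrl, 54.0, 62.4 and 61.0 in CIA, and 55.7, 54.4 and 52.8 in CIA+THz. Its CIA and Ctrl libraries overlapped, and the log2 fold change was -0.12 ± 0.14 in CIA against Ctrl and -0.12 ± 0.090 in CIA+THz against CIA. For both Tlr7 and Tlr13, all CIA+THz libraries lay below all Ctrl libraries, with log2 fold changes of -0.19 ± 0.13 and -0.24 ± 0.13 that did not pass (adjusted p = 0.492 and 0.373 by limma).

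Tlr9, the receptor of unmethylated CpG DNA (chromosome 9, 106222598 to 106226883, plus strand), had the largest SD relative to its mean among the endosomal receptors in each group. It was 3.24, 1.42 and 4.74 in Ctrl, 6.19, 4.29 and 2.47 in CIA, and 4.50, 9.56 and 4.66 in CIA+THz. The groups overlapped, with 1 high CIA+THz library. The log2 fold change was 0.51 ± 0.51 in CIA against Ctrl and 1.04 ± 0.48 in CIA+THz against Ctrl (unadjusted p = 0.0650, adjusted p = 0.309 by limma). Against Ctrl, Tlr9 passed in CIA+THz in 3 of the 9 alternatives that kept all libraries, namely FPKM as deposited (1.33), a filter at a mean of 1 and a fit of all 9 libraries (both 1.04), and without Ctrl replicate 3 (1.40). The summed level of 8 B cell markers was 468 to 569 in the Ctrl group, 553 to 735 in CIA and 653 to 855 in CIA+THz. CIA+THz replicate 2, the highest for Tlr9, also had the highest sum of these markers. Replicate 3 was highest for both in Ctrl, while in CIA replicate 1 was highest for Tlr9 and replicate 2 for the sum. The 6 plasmacytoid dendritic cell markers summed to 16.2 to 24.5, 13.1 to 16.9 and 14.8 to 18.5, and Klk1 among them was at 0 in every library. The part of these cells in the Tlr9 values was not tested.

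Myd88 (chromosome 9, 119335934 to 119341411, minus strand) had its highest level in CIA. It was 48.7, 39.4 and 53.2 in Ctrl, 54.0, 65.1 and 68.0 in CIA, and 54.2, 48.3 and 45.2 in CIA+THz. The CIA libraries all lay above the Ctrl libraries, although by less than 1 FPKM for the closest pair, and CIA+THz replicate 1 overlapped the lowest CIA library. The log2 fold change was 0.41 ± 0.15 in CIA against Ctrl (unadjusted p = 0.0317, adjusted p = 0.242 by limma). It was -0.34 ± 0.12 in CIA+THz against CIA (unadjusted p = 0.0284, adjusted p = 0.323 by limma) and 0.070 ± 0.14 in CIA+THz against Ctrl. None of these was past the size criterion. An exon of Myd88 overlaps Acaa1a on the other strand, which shares 5.68% of its 75-base stretches, and the strand setting of the counting is not given in the sources used here.

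By comparison, 1 of the 10 genes passed the criterion in CIA against Ctrl, beside 9.04% of all genes tested (4.79% higher and 4.25% lower). An unadjusted p under 0.05 was found for 4 of them, beside 17.3%, and 4 did not overlap between the groups, beside 23.5%. Between the CIA and CIA+THz libraries, none of the 10 passed the criterion, beside 4.54%. Tlr2, Tlr4 and Myd88, 3 of the 10, had an unadjusted p under 0.05, beside 13.2%. After rescaling, Tlr2 and Tlr4 did not overlap, beside 19.6% of all genes in either direction and 10.2% in theirs. After adjustment limma left no gene under 0.05 there, and the share of all genes was 0%. For CIA+THz against Ctrl, 3 of the 10 passed, all of them lower, beside 7.88% in either direction and 3.24% in that one. An unadjusted p under 0.05 was found for the same 3, beside 18.1%, and 5 of the 10 did not overlap, all lower, beside 24% in either direction and 12% in that one. None of the 10 had an adjusted p under 0.05 by limma against Ctrl, where 0.154% of all genes had one in CIA and 0.105% in CIA+THz. The counts against Ctrl depended on single libraries: without CIA replicate 1 or 2 no gene of the 10 passed in CIA, and without Ctrl replicate 3 there were 2 in CIA and 5 in CIA+THz. The share that passed was near the background for CIA against Ctrl and above it for CIA+THz against Ctrl. The median log2 fold change of the 10 genes was -0.11, -0.11 and -0.21 in CIA against Ctrl, CIA+THz against CIA and CIA+THz against Ctrl, whereas that of all genes tested was -0.0051, 0.025 and 0.039.

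**Figure D2:**
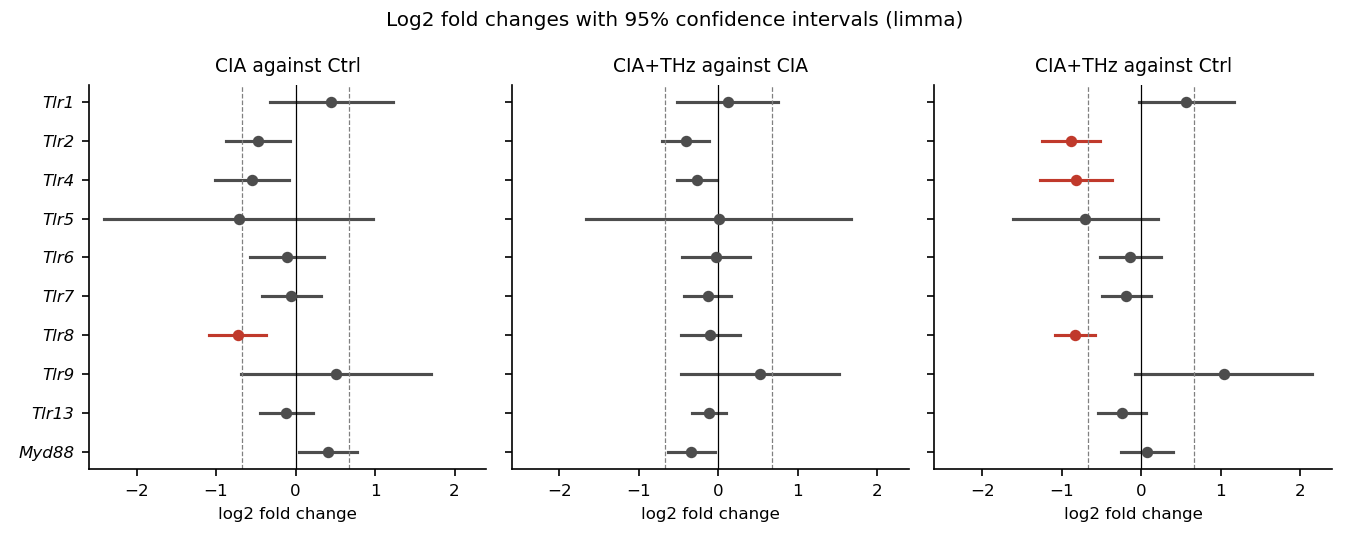
Log2 fold change of each gene on the log2(rescaled FPKM + 0.1) scale in CIA against Ctrl, CIA+THz against CIA and CIA+THz against Ctrl, with points for estimates, lines for 95% confidence intervals from limma, dashed lines at -0.67 and 0.67, and red for genes past the criterion. Tlr8 is red on the left and Tlr2, Tlr4 and Tlr8 on the right, none is red in the middle, and the widest interval belongs to Tlr5.

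The direction of several small changes depended on the scaling. On the log2 scale, the rescaling factors of CIA+THz differed by 0.28 from those of CIA and by 0.31 from those of Ctrl, and the pseudocount made the shift smaller for genes of low level. With FPKM as deposited, 8 of the 10 genes had a log2 fold change above 0 from CIA to CIA+THz, against 3 after rescaling beside 52.9% of all genes, and the median over all genes as deposited was 0.29. Tlr2 and Myd88 had a log2 fold change below 0 under either scaling, with that of Tlr2 between -0.43 and -0.092 and that of Myd88 between -0.34 and -0.016 over the 10 settings that kept all libraries. Against Ctrl, the log2 fold changes of Tlr2, Tlr4 and Tlr8 in CIA+THz were -0.58, -0.51 and -0.53 with FPKM as deposited, which no longer passed the size criterion, while Tlr1 and Tlr9 passed it as higher, at 0.87 and 1.33. The median of all genes under that scaling was 0.33.

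**Figure D3:**
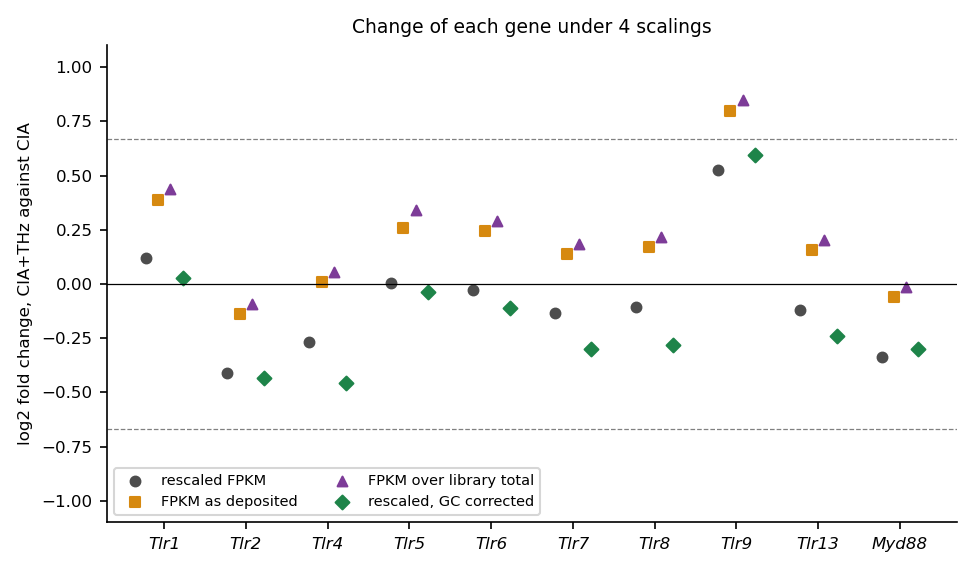
Log2 fold change of each gene in CIA+THz against CIA under 4 scalings, rescaled FPKM, FPKM as deposited, FPKM divided by the library total and rescaled FPKM corrected for GC content, with dashed lines at -0.67 and 0.67. Tlr4, Tlr6, Tlr7, Tlr8 and Tlr13 lie below 0 after rescaling and above 0 as deposited, while Tlr2 and Myd88 lie below 0 under all 4.

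Markers of the cells that carry these receptors also differed between the groups. The 10 neutrophil markers, 77.0% of whose sum came from S100a9, summed to 12404 to 20945 in the Ctrl group, 14241 to 18431 in CIA and 10540 to 11994 in CIA+THz. From CIA to CIA+THz, all 10 had a log2 fold change below 0, with a median of -0.45, and 3 passed the criterion. From Ctrl to CIA 4 were above 0 and 6 below, and 2 passed, both lower. For CIA+THz against Ctrl, 9 of the 10 were below 0, with a median of -0.61, 6 did not overlap and 4 passed, all lower. With FPKM as deposited, 2 of the 10 were above 0 from CIA to CIA+THz and the median was -0.17, beside 0.29 for all genes. In CIA+THz against Ctrl, 2 were above 0 as deposited and the median was -0.30, beside 0.33 for all genes. Ctrl replicate 3, lowest for Tlr2 and Tlr4, was the lowest Ctrl library for each of these markers except Csf3r. It was also the lowest Ctrl library for the summed monocyte, pan-leukocyte, platelet and erythroid markers. For the sums of B cell, T cell, NK cell and eosinophil markers it was the highest. Among the Ctrl libraries, Csf3r and Tlr8 were highest in it. The 10 monocyte markers, led by Lyz2 with 80.3% of the sum, summed to 3156 to 3503 in Ctrl, 5418 to 6016 in CIA, and 3648 to 3933 in CIA+THz. From Ctrl to CIA, all 10 had a log2 fold change above 0, with a median of 0.86, and 6 passed the criterion. For CIA+THz against Ctrl, 8 did not overlap, all higher, the median was 0.65 and 4 passed, all higher. Between CIA and CIA+THz, 9 were below 0 after rescaling and 1 passed, lower. With FPKM as deposited, 5 were above 0 and 5 below in that comparison, with a median of 0.036. The monocyte sum was highest in CIA, as was the level of Myd88, while Tlr2, Tlr4 and Tlr8 were lower in CIA than in Ctrl. The paper also counted blood cells, and reports raised neutrophils, monocytes and lymphocytes in CIA mice and a smaller rise in CIA+THz mice. Those are numbers of cells, whereas the marker levels here are relative to the other RNA of a library. The part of the cell composition in the receptor values was not tested.

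**Figure D4:**
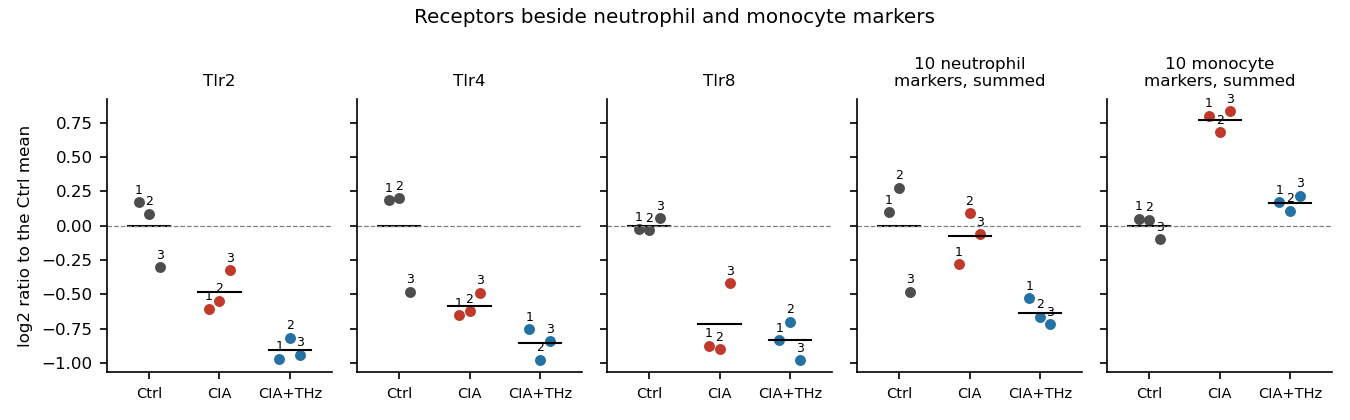
Log2 ratio to the Ctrl mean of Tlr2, Tlr4, Tlr8 and the summed levels of 10 neutrophil and 10 monocyte markers in each library, with numbers for the libraries and bars for group means. Ctrl replicate 3 is the lowest Ctrl library for Tlr2, for Tlr4 and for both the neutrophil and the monocyte sum. The CIA libraries are low for Tlr8 but within the Ctrl range for the neutrophil sum, and the monocyte sum is highest in CIA. S100a9 makes up 77.0% of the neutrophil sum, and 6 of the 10 markers had a log2 fold change below 0 from Ctrl to CIA.

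The rest of the pathway was followed in 71 genes, of which 65 were tested. Among them, 10 passed the criterion in CIA against Ctrl (6 higher, 4 lower), beside 9.04% of all genes, 2 in CIA+THz against CIA, beside 4.54%, and 9 in CIA+THz against Ctrl, beside 7.88%. The first count was 4 without Ctrl replicate 1 and 6 without CIA replicate 2, and the second was 4 without CIA replicate 3. The median log2 fold changes were -0.022, -0.023 and 0.0068, close to those of all genes. Of the other Toll-like receptors, Tlr3, Tlr11 and Tlr12, the highest value in any library was 0.641. Tlr3, a receptor of double-stranded RNA, was listed at 0 in 2 Ctrl and 2 CIA libraries and was 0.641, 0.440 and 0.187 in CIA+THz. It was above the limit for testing only through the CIA+THz libraries, so nothing is read from its place among the genes past the criterion in both comparisons of CIA+THz.

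Co-receptors, chaperones and proteases of the receptors had the most changes, with 5 of 13 past the criterion in CIA against Ctrl, beside the 9.04% of all genes. Cd14, which hands lipopolysaccharide to Tlr4, was 102, 90.9 and 68.6 in Ctrl, 71.3, 83.7 and 78.9 in CIA, and 44.7 ± 6.11 over the CIA+THz libraries. All CIA+THz libraries lay below all others. Cd14 fell by 0.81 ± 0.13 in CIA+THz against CIA (adjusted p = 0.172 by limma) and by 0.95 ± 0.17 in CIA+THz against Ctrl (adjusted p = 0.0873 by limma). With FPKM as deposited these were -0.53 and -0.65 and no longer passed. Cd180 and Ly86, a receptor of B cells related to Tlr4 and its partner, rose in CIA against Ctrl by 0.74 ± 0.18 and 0.91 ± 0.22 (adjusted p = 0.128 and 0.122 by limma). Both also passed in CIA+THz against Ctrl, at 0.98 ± 0.24 and 0.81 ± 0.20 (adjusted p = 0.137 for each by limma).

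The genes that serve the endosomal receptors moved in both directions. Unc93b1, which carries those receptors to endosomes, was 58.9, 65.6 and 70.2 in Ctrl and 90.9, 111 and 112 in CIA, and rose by 0.68 ± 0.13 (adjusted p = 0.0730 by limma). Ctss, which encodes cathepsin S, was 115 ± 6.22 in the Ctrl group and rose to 252 ± 41.0 with CIA and 209 ± 5.22 with CIA+THz, with an adjusted p of 0.0501 in CIA and 0.0305 in CIA+THz against Ctrl by limma. Hsp90b1, the chaperone gp96 that folds Toll-like receptors, fell from 74.4 ± 6.27 in Ctrl to 41.6 ± 6.93 in CIA, by 0.85 ± 0.15 (adjusted p = 0.0669 by limma). After GC correction neither Unc93b1 (0.47) nor Hsp90b1 (-0.62) passed. Ctsb, the protease gene of the highest level, was 622 ± 126, 615 ± 141 and 465 ± 42.5 in the same order and did not pass.

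Of 25 adaptors, kinases and transcription factors, 3 passed in CIA against Ctrl, beside the same 9.04%, and none in CIA+THz against CIA. Irf5, a factor activated through Myd88, rose in CIA from 27.9 ± 6.75 to 48.6 ± 3.64, by 0.83 ± 0.19 on the log2 scale (adjusted p = 0.112 by limma). The kinase genes Tbk1 and Map3k8 fell in CIA by 0.70 ± 0.19 and 0.68 ± 0.24 (adjusted p = 0.152 and 0.225 by limma), and of the 10 settings that kept all libraries they passed in 7 and 6. In CIA+THz against Ctrl, 2 of the 25 genes passed, Irf5 and Map3k8, beside 7.88% of all genes. Their log2 fold changes were 0.70 ± 0.19 and -0.73 ± 0.22 (adjusted p = 0.146 and 0.167 by limma), and they passed in 9 and 7 of the 10 settings. The 4 genes of this list with the highest levels were Tab2, Nfkb1, Chuk and Tab3, none of which passed. Nfkb1, a subunit of NF-kB, was 72.4 ± 9.15, 72.5 ± 8.77 and 82.1 ± 5.54 in the same order.

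Of 14 inhibitors, only Socs1 passed in a pairwise comparison, beside 9.04% of all genes in CIA against Ctrl and 7.88% in CIA+THz against Ctrl. Socs1, a suppressor of cytokine signalling, rose from 1.72 ± 0.641 in Ctrl to 3.47 ± 0.563 in CIA, by 1.03 ± 0.35 on the log2 scale (adjusted p = 0.213 by limma). Socs1 also passed in CIA+THz against Ctrl, at 0.90 ± 0.36 (adjusted p = 0.247 by limma), although the libraries overlapped. After GC correction Irf5 and Socs1 did not pass in CIA (0.64 and 0.80) or in CIA+THz (0.58 and 0.76) against Ctrl. The inhibitor genes of the highest levels, Dok3, Tollip, Nfkbia and Cyld, did not pass. Among 16 genes that the pathway induces, 10 were tested and Tnf alone passed, against Ctrl only, beside the same 9.04% and 7.88%. Tnf was 1.98, 1.89 and 2.41 in Ctrl, 0.988, 1.11 and 1.45 in CIA, and 0.830, 0.771 and 0.681 in CIA+THz. The 3 groups did not overlap. Tnf fell by 0.78 ± 0.32 in CIA against Ctrl (adjusted p = 0.268 by limma) and by 1.35 ± 0.29 in CIA+THz against Ctrl (adjusted p = 0.112 by limma), and of the 10 settings it passed in 4 and in all, respectively. Il1b, the induced gene of the highest level, was 322 ± 55.6 in the Ctrl group, 386 ± 20.7 in CIA and 301 ± 19.5 in CIA+THz, and in CIA+THz against CIA its log2 fold change was -0.36 ± 0.095 (adjusted p = 0.239 by limma). Acod1, Nfkbiz and Ccl3 did not pass.

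**Figure D5:**
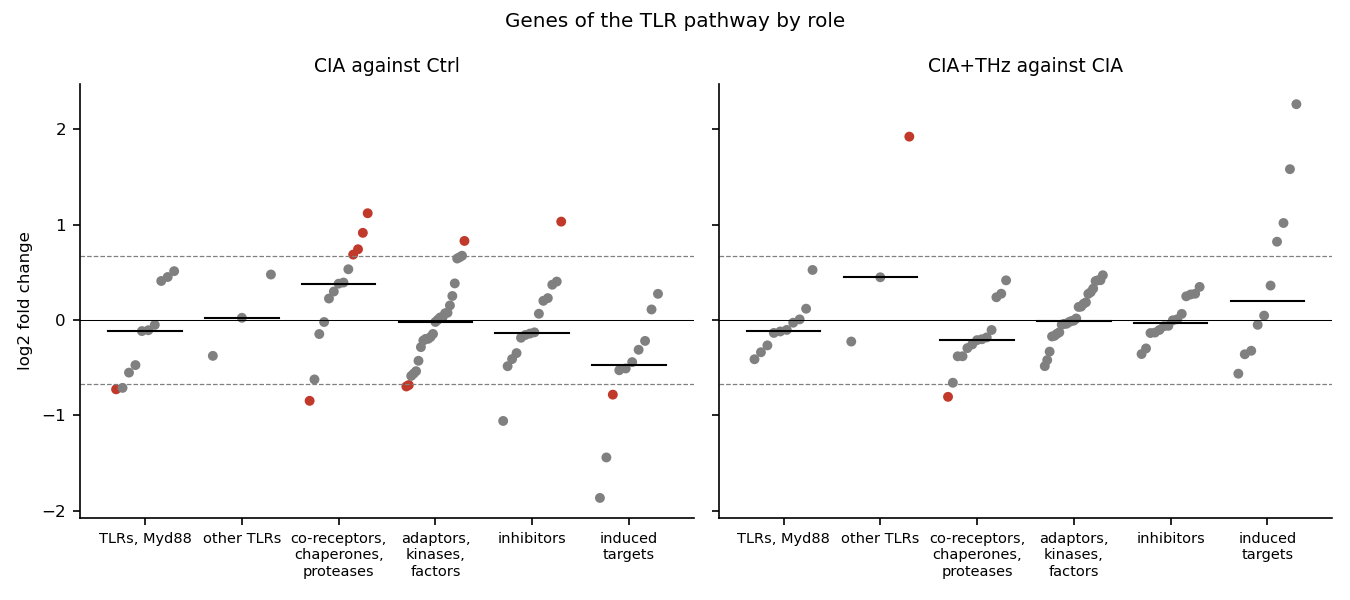
Log2 fold changes of the Toll-like receptors with Myd88 and of the other pathway genes by role, in CIA against Ctrl and CIA+THz against CIA, with 1 point per gene tested, red for genes past the criterion, bars for medians and dashed lines at -0.67 and 0.67. Co-receptors, chaperones and proteases lie highest in CIA against Ctrl, and in CIA+THz against CIA the red points are Cd14 and Tlr3, which was tested only through its CIA+THz libraries.

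The profiles over the 9 libraries were also compared with those of 9748 genes with a mean of at least 1, by the root mean square distance of centred log2 values, as a description. Tlr2 was nearest to Bend4 (0.097) and Il1f9 (0.12), and Tlr4 was the third (0.13). Tlr4 was nearest to Lrrfip2 (0.097), Fpr2 (0.11) and Samsn1 (0.13). Tlr8 was nearest to Cpeb4 (0.13), Mfsd14b (0.15) and Hspa1a (0.15), and its nearest gene among the 10 was Tlr2 (0.21). For scale, these 3 receptors varied around their own means by 0.39, 0.39 and 0.40. Myd88 was nearest to Ttyh3 (0.067), Myadm (0.073) and Slc9a3r1 (0.085). Tlr13 was nearest to Kif1b, Rnf149 and Svil, Tlr7 to Kctd20, Sec23b and Gpkow, and Tlr6 to Upf2, Fam207a and Ddx39, all within 0.10. Tlr13, Tlr7 and Tlr6 themselves varied little, by 0.15, 0.13 and 0.19 around their own means. Tlr1 was nearest to Pdp2, Aldh18a1 and Ttc1, all at 0.17 to 0.18. Tlr5 (Zfp677, Rab3il1 and Zmat1) and Tlr9 (Mipep, Zmym3 and Tbc1d16) had no gene closer than 0.32, and varied around their own means by 0.80 and 0.72.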

How the data were processed

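The authors sequenced 9 libraries of blood RNA in paired-end mode. The labels name blood leukocytes, whereas the methods of the paper describe extraction of total blood RNA. The number of mice behind each library is not given in the sources used here. The authors deposited FPKM, 1 column per library, for 20926 symbols. The submitters' processing notes list bcl2fastq 2.0, HISAT2, StringTie, DESeq2 and the build mm10, without roles. The annotation, filters and strand are not given in the sources used here. FPKM holds no depth: no whole-read steps were found. Groups came from the sample labels.

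Libraries were put on a common scale with median-of-ratios factors from the 10312 genes whose FPKM exceeded 0 everywhere. Log2(rescaled FPKM + 0.1) of 12366 genes with a mean of at least 0.1 was tested with limma 3.58.1 (lmFit, eBayes with trend) in R 4.3.3, each comparison on its 6 libraries, and by a moderated F-test on all 9. The criterion is that of the paper. The code was tested on simulated data. Alternatives were other scalings, a pseudocount of 1, other filters, no trend, a replicate block, a common fit, a variance test on linear values, a GC correction (loess per library), adjusted p and leaving out each library.

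The 10 genes, the pathway and marker lists and the tests were chosen with earlier results of these data known. Named pathway genes are those past the criterion and the 4 of each list with the highest level, and the 3 nearest profiles were taken for each of the 10 genes. Coordinates and GC content are from GENCODE on GRCm38, matched by symbol, and promoters are from RefSeq.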

Additional observations from a re-analysis of the deposited data

How the results depend on the processing

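The counts of genes past the criterion depended most on the scaling and the adjustment, and the causes were not tested. In CIA against Ctrl, 1 of the 10 genes, 10 other pathway genes and 1118 genes passed. With adjusted p by limma these were 0, 0 and 19, and after GC correction 0 of the 10 genes and 5 pathway genes passed. Between CIA+THz and CIA, 0, 2 and 561 passed, and with adjusted p 0, 0 and 0 by limma, although 1634 genes had an unadjusted p under 0.05. There, 7 pathway genes and 1199 genes (1133 higher, 66 lower) passed with FPKM as deposited, 8 and 1411 (1359 higher, 52 lower) with FPKM over the library total, and 1 and 283 with a pseudocount of 1, against 363 higher and 198 lower genes with the rescaled values. A filter at a mean of 1 left 1 pathway gene. For CIA+THz against Ctrl, 3, 9 and 975 passed, and with adjusted p 0, 1 and 13 by limma. FPKM as deposited gave 1720 genes (1600 higher, 120 lower), and FPKM over the library total 1 of the 10 genes and 1664 genes. Across the 3 groups, 4, 19 and 2629 had an unadjusted p under 0.05, and 2, 4 and 313 an adjusted p by limma. Leaving out 1 library gave 0 to 2, 4 to 12 and 966 to 1261 for CIA against Ctrl, 0 to 0, 2 to 4 and 484 to 745 for CIA+THz against CIA, 3 to 5, 7 to 12 and 724 to 1487 in CIA+THz against Ctrl, and 3 to 4, 16 to 23 and 2059 to 2789 across the groups. The largest counts against Ctrl, 2 and 5 of the 10 genes, came without Ctrl replicate 3, when Tlr4 passed in CIA, and Tlr5 (-0.99) and Tlr9 (1.40) in CIA+THz. Without CIA replicate 1 or 2, none passed in CIA. Log2 fold changes changed sign as follows. In CIA against Ctrl, GC correction gave 0.0042 for Tlr6, 0.21 for Tlr7 and 0.065 for Tlr13. In CIA+THz against CIA, Tlr4, Tlr6, Tlr7, Tlr8 and Tlr13 were 0.0096, 0.25, 0.14, 0.17 and 0.16 as deposited and 0.055, 0.29, 0.18, 0.22 and 0.20 as FPKM over the library total, and Tlr5 was -0.10 with a pseudocount of 1 and -0.039 after GC correction. In CIA+THz against Ctrl, Tlr6, Tlr7 and Tlr13 were 0.17, 0.12 and 0.069 as deposited and 0.17, 0.12 and 0.074 as FPKM over the library total, and Myd88 was -0.029 after GC correction. Leaving out 1 library moved Tlr5 from -1.14 to 0.10, Tlr6 from -0.22 to 0.041, Tlr7 from -0.14 to 0.043 and Tlr13 from -0.21 to 0.011 in CIA against Ctrl. Between the CIA and CIA+THz groups it moved Tlr1 from -0.083 to 0.36, Tlr5 from -0.81 to 0.43, Tlr6 from -0.18 to 0.083 and Tlr8 from -0.19 to 0.050, and in CIA+THz against Ctrl it moved Myd88 from -0.053 to 0.16. Tlr2, Tlr4 and Tlr8 passed in CIA+THz against Ctrl without any 1 library. Of the log2 fold changes of the 10 genes under alternatives that kept all libraries, 236 held their direction and side of the criterion, 22 changed sign, 7 lost the call and 5 gained it. Same-numbered libraries deviated with correlations of -0.052 to 0.031, against -0.034 to 0.056 for different numbers, so the numbers pair nothing. With the replicate number as a block, 1, 0 and 3 of the 10 genes passed in the 3 comparisons. Read depth is unknown, which limits Tlr5, Tlr3 and other low genes most.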

Other observations

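Markers of blood cells that are not described above also differed between the groups. The 8 T cell markers summed to 274 to 310 in Ctrl, 226 to 254 in CIA and 284 to 388 in CIA+THz, with all 8 below 0 in CIA against Ctrl and all 8 above 0 in CIA+THz against CIA, of which 1 passed the criterion. The 5 NK cell markers summed to 21.7 to 30.7, 8.25 to 19.8 and 13.9 to 21.8 in the same groups, and Klra8 was at 0 in every library. The 7 platelet markers, led by Ppbp, summed to 4118 to 5025, 3957 to 4936 and 3291 to 3980, and the 5 eosinophil markers to 13.4 to 19.0, 14.7 to 19.9 and 17.0 to 20.2. The erythroid sum, 99.3% of it Alas2, was 69224 to 103849, 87272 to 98028 and 47515 to 65562. The 4 markers shared by leukocytes summed to 1103 to 1236, 1235 to 1338 and 1173 to 1194.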
